A study of Mus musculus with 10 samples.

Results

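The complement genes described here are 9 of the 15790 genes in the deposited count table, taken by symbol: C1qa, C1qb, C1qc, C1ra, C2, C3, C4b, Cfb and Serping1. All 9 passed the filter on low counts, which left 12912 genes for testing. They were read in bulk 3′ end RNA libraries (MARS-seq) of sorted mouse thymic epithelial cells (TEC), the epithelium that supports T cell development. The groups were the Foxn1 del AR3 mutant (AR3_mut, 3 libraries), its heterozygote (AR3_het, 3 libraries) and nu/nu mice (nude, 4 libraries). Per the labels both AR3 groups were C57BL/6 mice aged 4.5 weeks and the nude mice were ICR aged 5 weeks, so strain, age and genotype change together in nude and cannot be told apart. AR3_het carries the del AR3 allele as well, and no library of wild-type mice was analysed here. Whether each library is its own animal is not in the labels, and p-values then measure only the spread between these libraries, which may be technical. The labels do not name the sort markers or say what the del AR3 allele removes.

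Complement is a cascade of proteins that tags particles and cells for uptake or lysis. In its classical branch, C1q binds a target, the proteases C1r and C1s that travel with it cleave C4 and C2, and the C4-C2 enzyme cleaves C3. Factor B, encoded by Cfb, builds the C3-cleaving enzyme of the alternative branch, and the C1 inhibitor encoded by Serping1 shuts off C1r and C1s. The liver makes most of these proteins in plasma, fibroblasts, endothelium and epithelium make them locally, and C1q is made mainly by macrophages and dendritic cells, the cells that clear dying thymocytes in the thymus.

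The members parted into a pair of opposite patterns. The 3 C1q chains were lower in AR3_mut and nude than in AR3_het, and the other 6 genes were higher. By edgeR's quasi-likelihood test with Benjamini-Hochberg adjustment over all genes tested and a threshold of 0.05, all 9 members passed in AR3_mut against AR3_het, 6 of them higher and 3 lower, where 41.8% of all genes passed, 21.2% higher and 20.6% lower. All 9 also passed in nude against AR3_het, with the same 6 higher and 3 lower, where 47.9% of all genes passed, 23.7% higher and 24.2% lower. The groups did not overlap for any of the 9 in either comparison, as for 55.0% of all genes in AR3_mut against AR3_het and 53.8% in nude against AR3_het. These comparisons share the AR3_het libraries. In AR3_mut against nude 0 of 9 passed, where 11.3% of all genes did, 7.58% higher and 3.71% lower in AR3_mut. The summed share of the 9 members was 0.0566 to 0.0965% of a library's counts in AR3_het, 0.245 to 0.663% in AR3_mut and 0.383 to 0.959% in nude. The balance of all calls depends on the scaling. It was 2741 higher and 2661 lower for AR3_mut against AR3_het and became 2066 and 3881 with library totals in place of TMM. In nude against AR3_het it was 3059 and 3123, and became 2145 and 4867.

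**Figure D1:**
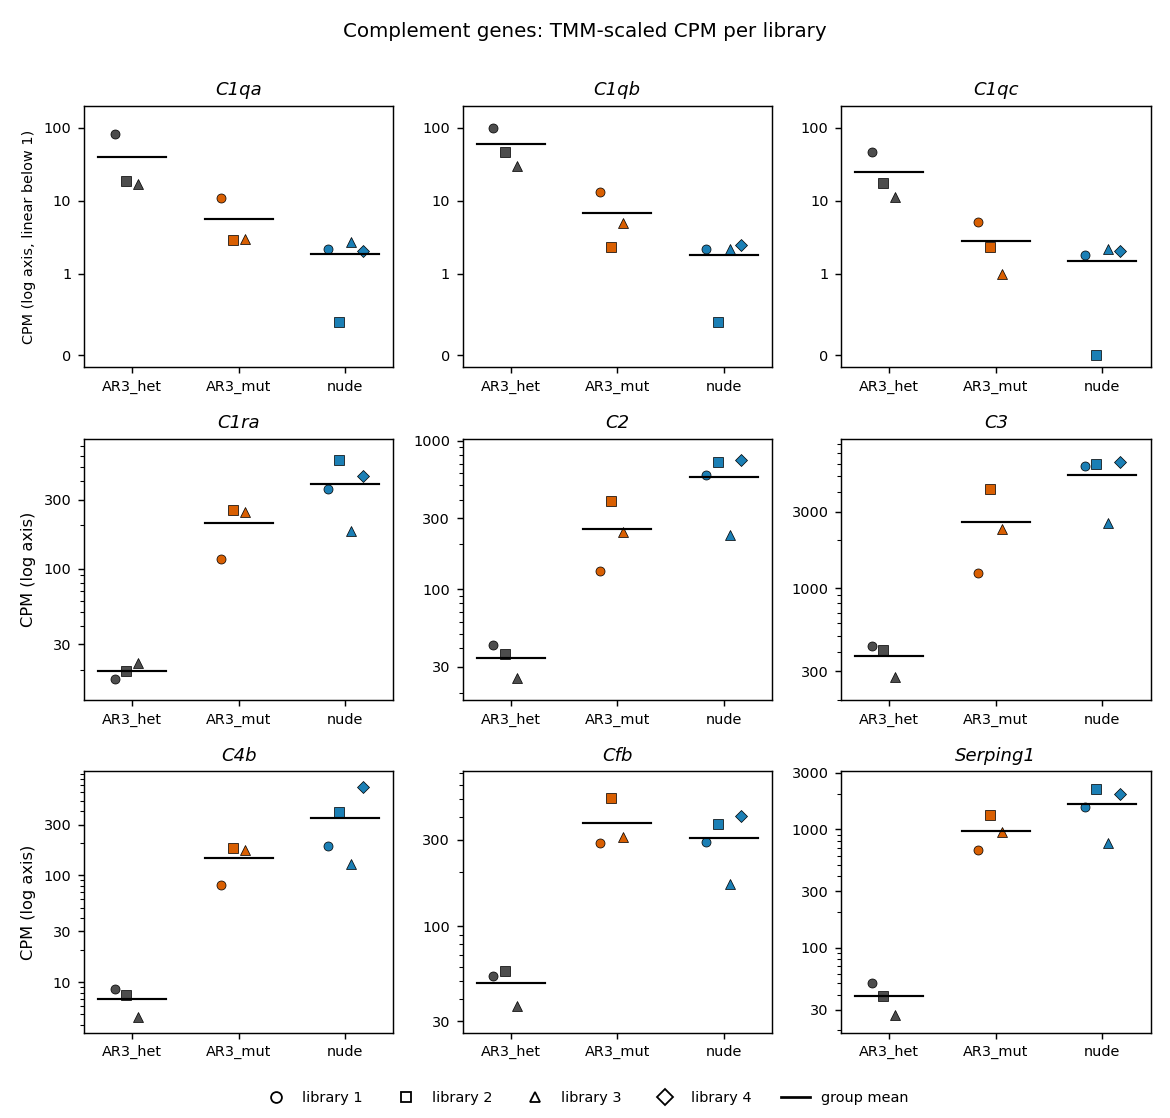
TMM-scaled CPM of each complement gene in each library, on a log axis (linear below 1 for the C1q chains), with a marker shape for each library number and the group mean as a bar. The C1q chains are highest in AR3_het, and the other 6 genes are lowest there with no overlap. In nude, library 3 has the lowest point for each of those 6 genes.

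Library totals ran from 1056066 counts in AR3_mut 3 to 4175851 in AR3_het 1, so that 3 counts correspond to 0.621 to 2.99 CPM. Levels are given as CPM, counts scaled to a common library size with TMM factors. Foxn1 itself had 1844, 1046 and 1711 counts in AR3_het 1 to 3 and 1 to 4 counts in each of the other 7 libraries. Listed TEC markers took 2.24 to 2.60% of the counts in AR3_het, 0.169 to 0.414% in AR3_mut and 0.396 to 0.556% in nude. That list holds Foxn1 itself, and single genes weigh heavily in it. Mean Prss16 was 7073 CPM in AR3_het, 9.96 in AR3_mut and 3.25 in nude, and mean Ccl25 was 4050, 11.3 and 3.18 CPM. The keratin Krt8 fell in AR3_mut (−1.19, edgeR adjusted p = 0.0193) and did not pass in nude (−0.37, edgeR adjusted p = 0.379). The other listed keratins, Krt18, Krt5 and Krt14, fell in nude (−0.88, −2.86 and −1.37, edgeR adjusted p = 0.0174, 0.000663 and 0.025). In AR3_mut Krt18 and Krt5 fell (−1.51 and −2.47, edgeR adjusted p = 0.00155 and 0.00395) and Krt14 did not pass (−1.02, edgeR adjusted p = 0.117). Of the 12 TEC markers 10 fell in each comparison with AR3_het, where 20.6% and 24.2% of all genes fell. The epithelial marker Epcam stayed readable, at 151 ± 74.5 CPM in AR3_mut, 263 ± 71.4 CPM in AR3_het and 373 ± 113 CPM in nude (SD, n = 3, 3 and 4). Markers of fibroblasts and pericytes took 0.108 to 0.144% in AR3_het, 0.930 to 1.56% in AR3_mut and 0.941 to 2.25% in nude. Endothelial markers took 0.0271 to 0.0350%, 0.812 to 0.992% and 0.160 to 0.321%, in the same order of groups. Thymocyte markers went the other way, at 0.128 to 0.229% in AR3_het, 0.0103 to 0.0124% in AR3_mut and 0.00579 to 0.0126% in nude. All 13 that were tested fell in both comparisons with AR3_het, as did 20.6% and 24.2% of all genes. In bulk samples such as these, fewer cells of a type and less RNA per cell cannot be told apart.

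C1q opens the classical pathway and is built of 3 chains, A, B and C. Their genes lie beside each other on the minus strand of chromosome 4 in GENCODE M21 (GRCm38), C1qa at 136895917 to 136898803, C1qc at 136889804 to 136893065 and C1qb at 136880129 to 136886187. The gaps between them are 2851 and 3616 bases. C1qa had 400, 61 and 80 counts in AR3_het 1 to 3 (82.8, 18.5 and 17.2 CPM), 28, 5 and 3 counts in AR3_mut 1 to 3 (10.9, 2.89 and 2.99 CPM) and 6, 1, 5 and 5 counts in nude 1 to 4 (2.17, 0.412, 2.77 and 2.05 CPM). AR3_het 1 stood well above the other heterozygous libraries, and no library of AR3_mut or nude reached the lowest of AR3_het. The change of C1qa was −2.67 on the log2 scale in AR3_mut (SE 0.72, edgeR adjusted p = 0.0108) and −4.42 in nude (SE 0.73, edgeR adjusted p = 0.000401). The call in AR3_mut was lost without AR3_het 1 (−1.63, edgeR adjusted p = 0.0593) and with limma-voom (−2.5, adjusted p = 0.0558).

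C1qb had 489, 157 and 141 counts in AR3_het (101, 47.6 and 30.2 CPM), 34, 4 and 5 counts in AR3_mut (13.3, 2.32 and 4.98 CPM) and 6, 1, 4 and 6 counts in nude (2.17, 0.412, 2.21 and 2.46 CPM). Again AR3_het was above both other groups with no overlap, and AR3_mut 2 fell within the range of nude. C1qb fell by 3.0 on the log2 scale in AR3_mut (SE 0.60, edgeR adjusted p = 0.00189) and by 5.02 in nude (SE 0.62, edgeR adjusted p = 5.21e-05). C1qc, the third chain, had 224, 58 and 53 counts in AR3_het (46.3, 17.6 and 11.4 CPM), 13, 4 and 1 counts in AR3_mut (5.08, 2.32 and 0.995 CPM) and 5, 0, 4 and 5 counts in nude (1.81, 0, 2.21 and 2.05 CPM). It fell by 2.97 in AR3_mut (SE 0.72, edgeR adjusted p = 0.00611) and by 4.04 in nude (SE 0.69, edgeR adjusted p = 0.000508). Its AR3_het libraries lay above all the others.

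Within groups the chains kept a common order of libraries at the top. AR3_het 1 was the highest heterozygous library and AR3_mut 1 the highest mutant library for all 3 chains, and nude 2 was the lowest nude library for all 3. Of the summed counts of the chains, C1qa made up 32.5% of 1663 counts in AR3_het (95% exact binomial interval 30.3 to 34.8%), 37.1% of 97 in AR3_mut (27.5 to 47.5%) and 35.4% of 48 in nude (22.2 to 50.5%). C1qb made up 47.3% in AR3_het (44.9 to 49.8%), 44.3% in AR3_mut (34.2 to 54.8%) and 35.4% in nude (22.2 to 50.5%). C1qc made up 20.1% in AR3_het (18.2 to 22.2%), 18.6% in AR3_mut (11.4 to 27.7%) and 29.2% in nude (17 to 44.1%). These intervals cover counting error only, and with 97 and 48 counts they are too wide to show a modest shift in proportion. They pool libraries that differed in proportion. C1qa and C1qb had 400 and 489 counts in AR3_het 1, 61 and 157 in AR3_het 2, and 80 and 141 in AR3_het 3.

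The promoters of C1qb and C1qc, the 250 bases before the RefSeq start site in GRCm38.p6, are shown because these neighbouring genes moved together. Capitals mark letters that match a searched motif.
C1qb, chr4:136886201-136886450, minus strand: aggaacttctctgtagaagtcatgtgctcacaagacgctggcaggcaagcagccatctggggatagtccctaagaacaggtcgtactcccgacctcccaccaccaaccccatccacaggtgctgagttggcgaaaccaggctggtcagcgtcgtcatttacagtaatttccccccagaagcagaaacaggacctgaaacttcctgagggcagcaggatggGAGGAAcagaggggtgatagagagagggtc
C1qc, chr4:136892915-136893164, minus strand: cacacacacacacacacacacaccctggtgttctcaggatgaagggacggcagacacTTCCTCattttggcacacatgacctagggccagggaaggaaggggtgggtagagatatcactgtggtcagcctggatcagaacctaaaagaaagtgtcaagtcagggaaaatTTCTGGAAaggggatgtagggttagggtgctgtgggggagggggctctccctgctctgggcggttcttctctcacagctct
Each holds 1 match to GAGGAA, the purine-rich core bound by PU.1, a factor of myeloid cells, read on either strand. The match lies 30 to 25 bases before the start in C1qb and, as TTCCTC, 193 to 188 bases before it in C1qc. Of 32851 RefSeq promoters of this length, 23.3% hold this motif. C1qc also has TTCTGGAA, a match to the C/EBP pattern TTNNGNAA, found in 36.8% of promoters. It lies 81 to 74 bases before the start and overlaps no other match. GENCODE M21 places the start of C1qc further out than RefSeq. For that reason 151 of the 250 bases printed for C1qc, this C/EBP match among them, lie inside the GENCODE gene, against 0 for C1qb.

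The myeloid marker list moved with C1q only in part, and not in every library. Of 20 listed myeloid genes 19 were in the table and 14 were tested. In AR3_mut against AR3_het 7 fell, 1 rose and 6 did not pass, where 20.6% of all genes fell and 21.2% rose. The median log2 fold change was −1.77 beside −0.04 over all genes. In nude against AR3_het 10 fell, 1 rose and 3 did not pass, where 24.2% of all genes fell and 23.7% rose. The median was −3.53 beside −0.03. The 1 that rose was Csf1r, the receptor for a macrophage growth factor, in both cases. The macrophage marker Adgre1 had 20, 14 and 11 counts in AR3_het and 0 to 1 in each AR3_mut and nude library. Timd4, Cd163 and Ms4a7 were near the floor, with 1 to 24 counts in AR3_het libraries and 0 to 2 in the others, and none of these 4 was tested. Other markers of the list did not pass. Cd68, a lysosomal protein of macrophages, was at 0.24 in AR3_mut and 0.58 in nude on the log2 scale (edgeR adjusted p = 0.546 and 0.0972), and Cd14, a receptor for bacterial lipid, was at 1.09 and −0.38 (edgeR adjusted p = 0.139 and 0.575). Mrc1, the mannose receptor, was at 0.39 in AR3_mut (edgeR adjusted p = 0.678) and fell in nude (−2.15, edgeR adjusted p = 0.0244). The myeloid list as a whole made up 0.0921 to 0.151% of a library's counts in AR3_het, against 0.0117 to 0.0260% in nude. In AR3_mut 1 to 3 the list made up 0.335, 0.0435 and 0.0310%. Lyz2, the lysozyme of myeloid cells that some epithelia also express, made up 90.9% of the list in AR3_mut 1, and Laptm5, a protein of most leukocytes, made up 41.8 to 48.2% of it in AR3_het.

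Per 100 counts of the myeloid list, the C1q chains together had 17.7, 6.88 and 7.97 counts in AR3_het 1 to 3, 0.840, 1.68 and 2.75 in AR3_mut 1 to 3, and 2.71, 0.360, 5.86 and 2.27 in nude 1 to 4. Without Lyz2, Laptm5 and Ptprc, a choice made after seeing these values, the ratios were 59.2, 22.8 and 29.1 in AR3_het, 9.97, 3.29 and 3.28 in AR3_mut and 2.86, 0.364, 6.40 and 2.84 in nude. In both forms every AR3_het library lay above every other library. The part of the myeloid markers in the C1q difference was not tested.

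C1ra encodes the protease C1r, which C1q activates first. Its gene is on the plus strand of chromosome 6, at 124512405 to 124523443. It had 17.4, 19.7 and 22.3 CPM in AR3_het 1 to 3, 116, 256 and 248 CPM in AR3_mut 1 to 3, and 354, 564, 181 and 439 CPM in nude 1 to 4. All 7 AR3_mut and nude libraries were above AR3_het, and the ranges of AR3_mut and nude overlapped. C1ra rose by 3.37 on the log2 scale in AR3_mut (SE 0.42, edgeR adjusted p = 7.47e-05) and by 4.28 in nude (SE 0.43, edgeR adjusted p = 1.14e-05). The last 1000 bases of its transcript share an identical run of 215 bases with the neighbouring copy C1rb, so reads of the pair may be split between them.

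C4b encodes complement C4, the first substrate of C1s. It is on the minus strand of chromosome 17, at 34728380 to 34743882. It had 42, 25 and 22 counts in AR3_het (8.69, 7.58 and 4.72 CPM), 80.9, 182 and 173 CPM in AR3_mut, and 189, 395, 128 and 676 CPM in nude. Nude was the more uneven group, with nude 4 at 5.29 times nude 3. C4b rose by 4.36 in AR3_mut (SE 0.63, edgeR adjusted p = 0.00021) and by 5.63 in nude (SE 0.65, edgeR adjusted p = 3.18e-05). C4a, a neighbouring copy 65209 bases away, shares an identical run of 140 bases with the end of C4b, so C4b counts are uncertain to that extent. C4a itself was at 2.01 ± 0.301 CPM in AR3_het, 1.45 ± 1.33 CPM in AR3_mut and 4.88 ± 1.13 CPM in nude.

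C2 is the protease of the classical C3-cleaving enzyme, and Cfb is its counterpart in the alternative pathway. Their genes lie end to end on the minus strand of chromosome 17, C2 at 34862604 to 34898265 and Cfb at 34856374 to 34862518, with 85 bases between them. C2 had 41.8, 36.4 and 25.1 CPM in AR3_het, 133, 389 and 242 CPM in AR3_mut, and 587, 717, 231 and 735 CPM in nude. It rose by 2.88 in AR3_mut (SE 0.48, edgeR adjusted p = 0.00053) and by 4.04 in nude (SE 0.49, edgeR adjusted p = 4.32e-05), and 3 of 4 nude libraries were above all mutant libraries. Cfb had 53.6, 57.0 and 36.5 CPM in AR3_het, 289, 509 and 312 CPM in AR3_mut, and 290.5, 364, 171 and 407 CPM in nude. It rose by 2.92 in AR3_mut (SE 0.35, edgeR adjusted p = 5.17e-05) and by 2.65 in nude (SE 0.33, edgeR adjusted p = 5.73e-05). Cfb was the one gene of these 6 with a higher mean in AR3_mut, 370 ± 121 CPM, than in nude, 308 ± 103 CPM, and those ranges overlapped. The annotation has a read-through gene, Gm20547, over C2 and Cfb, and Zbtb12 within C2 on the opposite strand. No source used here says whether strand was used in counting.

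C3 is the protein on which all branches meet. Its gene is on the minus strand of chromosome 17, at 57203970 to 57228136. It had 432, 407 and 279 CPM in AR3_het, 1237, 4192 and 2359 CPM in AR3_mut, and 5799, 5980 (nude 2), 2542 and 6159 CPM in nude. AR3_mut 2 was above nude 3 and AR3_mut 3 just below it, and the other nude libraries were above every mutant library. C3 rose by 2.80 in AR3_mut (SE 0.45, edgeR adjusted p = 0.000472), a fitted 6.96-fold increase, and by 3.78 in nude (SE 0.46, edgeR adjusted p = 4.87e-05), a fitted 13.7-fold increase.

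Serping1, the inhibitor of the C1 proteases, had the largest fitted change of the 9 in AR3_mut. It is on the minus strand of chromosome 2, at 84765387 to 84775444. It had 50.1, 39.4 and 26.8 CPM in AR3_het, 673, 1313 and 946 CPM in AR3_mut, and 1538, 2212, 764 and 1984 CPM in nude. Every AR3_mut and nude library was far above the highest AR3_het library, and the ranges of AR3_mut and nude overlapped. Serping1 rose by 4.65 in AR3_mut (SE 0.44, edgeR adjusted p = 1.05e-05), a fitted 25.2-fold increase, and by 5.39 in nude (SE 0.45, edgeR adjusted p = 3.49e-06), a fitted 41.9-fold increase.

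**Figure D2:**
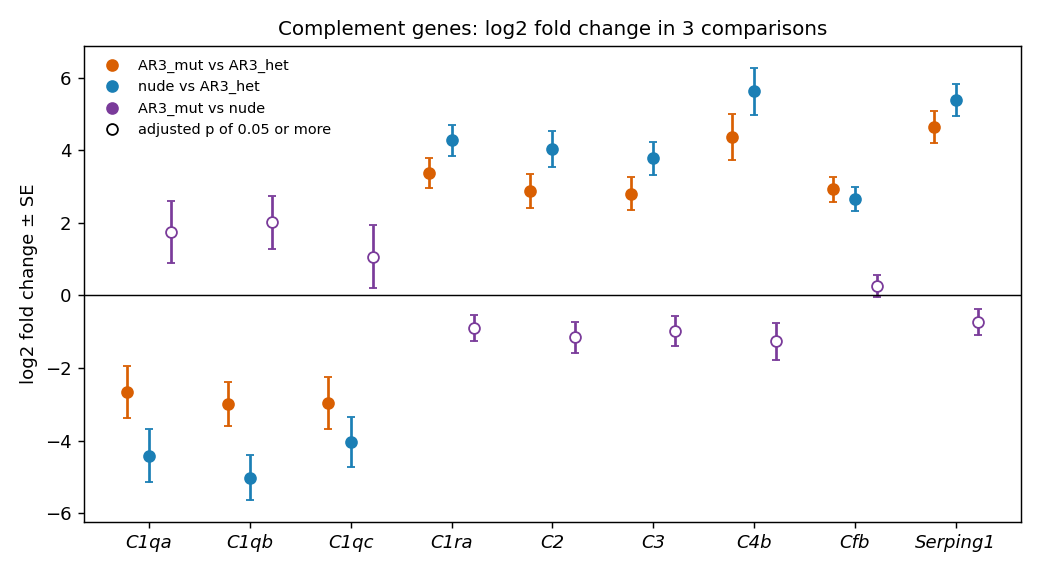
Fitted log2 fold change of each complement gene, with its SE as the bar, in the 3 comparisons. Filled points passed the adjusted threshold. The C1q chains lie below 0 and the other 6 genes above 0 in both comparisons with AR3_het, and every AR3_mut against nude point is open.

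The promoters of C3 and C1ra, again 250 bases before the RefSeq start site in GRCm38.p6, are shown as those of a pair of genes that rose together.
C3, chr17:57228137-57228386, minus strand: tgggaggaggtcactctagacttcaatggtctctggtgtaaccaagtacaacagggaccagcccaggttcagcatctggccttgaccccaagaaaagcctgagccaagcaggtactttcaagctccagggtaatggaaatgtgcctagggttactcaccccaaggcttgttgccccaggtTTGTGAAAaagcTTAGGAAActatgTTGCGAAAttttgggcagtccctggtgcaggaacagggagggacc
C1ra, chr6:124512371-124512620, plus strand: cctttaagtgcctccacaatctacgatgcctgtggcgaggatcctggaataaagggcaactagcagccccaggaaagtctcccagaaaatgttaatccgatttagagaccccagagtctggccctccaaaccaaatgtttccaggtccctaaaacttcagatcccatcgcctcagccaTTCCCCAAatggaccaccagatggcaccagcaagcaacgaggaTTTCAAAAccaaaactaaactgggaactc
C3 holds 3 matches to the C/EBP pattern TTNNGNAA, at 70 to 63, 58 to 51 and 45 to 38 bases before the start, and C1ra holds 2, at 72 to 65 and 29 to 22 bases before it. C/EBP factors act on many acute-phase genes, and 36.8% of promoters hold such a match. The interferon element ISRE (GAAA, any 2 bases, GAAA, in 2.98% of promoters), the STAT element GAS (TTCNNNGAA, 7.02%) and the NF-kB pattern (GGG, any 2 bases, TTTCC, 1.41%) had 0 matches on either strand in the windows of C1qb, C1qc, C3 and C1ra, and GAGGAA had 0 in C3 and C1ra. The RefSeq start of C1ra also lies inside the GENCODE gene, which holds 216 of the 250 bases printed and both matches, against 0 bases for C3. No match says only that these letters are not in this window.

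The 6 genes that rose also shared an order of libraries. AR3_mut 1 was the lowest and AR3_mut 2 the highest mutant library for each of them, and nude 3 was the lowest nude library for each. The share of fibroblast and pericyte markers was also lowest in these libraries, at 0.930% in AR3_mut 1 and 0.941% in nude 3 against 1.33 to 2.25% in the other libraries of those groups. Of 20 such markers 18 were tested. In AR3_mut 18 rose, where 21.2% of all genes did, with a median log2 fold change of 4.08. In nude 16 rose and 2 did not pass, where 23.7% of all genes rose, with a median of 3.56. The matrix genes Dcn, Mgp and Sparc made up most of the list's counts. Pdgfra, a receptor that marks many fibroblasts, had 2 to 12 counts in each of the 10 libraries.

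Relative to the summed counts of that list, the 6 genes behaved differently from each other. C3 had 42.5, 42.1 and 24.1 counts per 100 marker counts in AR3_het, 12.7, 26.0 and 16.8 in AR3_mut, and 34.7, 24.9, 25.7 and 26.1 in nude. These ranges overlapped. C1ra was at 1.71 to 2.04 in AR3_het, 1.19 to 1.77 in AR3_mut and 1.83 to 2.35 in nude, so that AR3_het overlapped with both other groups and AR3_mut lay below nude. For C2 the ranges were 2.17 to 4.11 in AR3_het, 1.37 to 2.41 in AR3_mut and 2.33 to 3.52 in nude, which also overlapped with AR3_het. For Serping1 AR3_het, at 2.32 to 4.93, lay below both other groups. AR3_mut, at 6.75 to 8.13, and nude, at 7.72 to 9.22, overlapped with each other. Cfb ran the other way, at 3.15 to 5.90 in AR3_het, 2.22 to 3.15 in AR3_mut and 1.52 to 1.74 in nude. C4b was at 0.408 to 0.855 in AR3_het, 0.834 to 1.24 in AR3_mut and 1.13 to 2.86 in nude. The part of fibroblast and pericyte RNA in the rise of these genes was not tested. The summed share of endothelial markers did not follow the same order, and was higher in every AR3_mut library than in any nude library. Of 19 such markers 16 were called higher in AR3_mut than in nude, where 7.58% of all genes were, and 3 did not pass. Kdr, 1 of these 3, was at 71.7 to 159 CPM in AR3_mut and 80.2 to 114 CPM in nude. The part of endothelial RNA was not tested either.

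**Figure D3:**
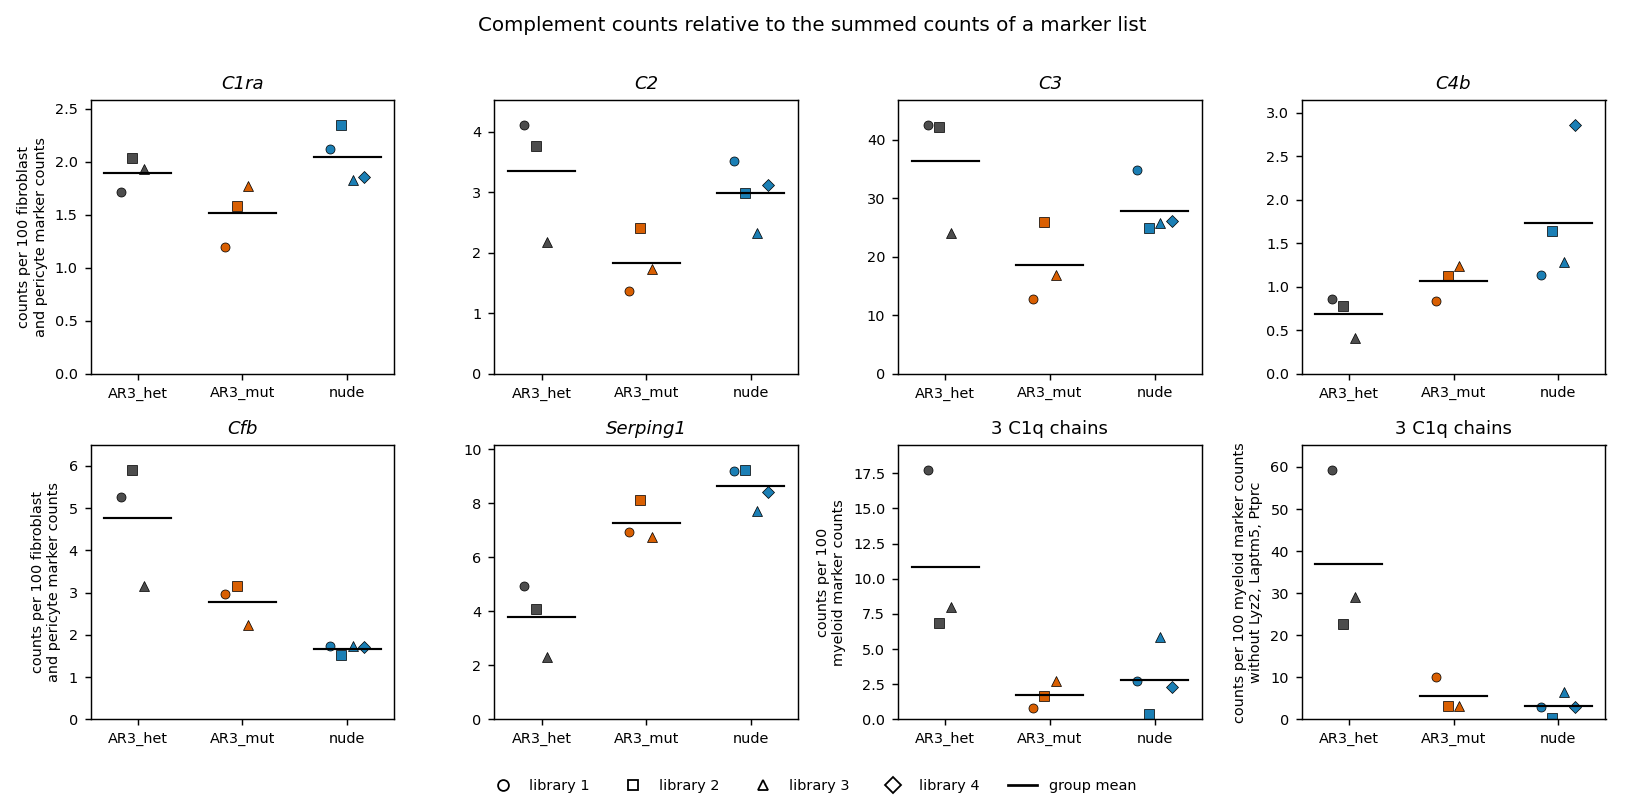
Counts of the 6 complement genes that rose, per 100 summed fibroblast and pericyte marker counts, and of the C1q chains per 100 myeloid marker counts, with all listed myeloid markers and without Lyz2, Laptm5 and Ptprc. Points are libraries, with a marker shape for each number, and bars are group means. Serping1 stays higher in AR3_mut and nude, C1ra, C2 and C3 overlap with AR3_het, Cfb is lowest in nude, and C1q stays highest in AR3_het.

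AR3_mut against nude compares the deletion with the classical null mutation across strain and age. None of the 9 members passed edgeR's quasi-likelihood test, and 5 had an unadjusted p under 0.05, as did 27.3% of all genes. DESeq2 called 2, C1qb and C2, where it called 15.4% of all genes, and limma-voom called 0, where it called 10.6%. The authors' deposited table gave an adjusted p of 0.047 for C1qb. C1qb was higher in AR3_mut by 2.02 on the log2 scale (SE 0.73, edgeR adjusted p = 0.097), with 43 counts in 3 libraries against 17 in 4. C1qa groups did not overlap, with its lowest mutant library at 2.89 CPM and its highest nude library at 2.77 CPM, a gap within counting error at 5 counts each. Of all genes 20.7% did not overlap, 12.0% with AR3_mut higher and 8.73% with it lower. C2 was lower in AR3_mut by −1.16 (SE 0.42, edgeR adjusted p = 0.102), C4b by −1.26 (SE 0.51, edgeR adjusted p = 0.138), C3 by −0.98 (SE 0.41, edgeR adjusted p = 0.146) and C1ra by −0.90 (SE 0.36, edgeR adjusted p = 0.135). Leaving out single libraries also changed the calls. Without nude 3, C1ra, C2, C3, C4b and Serping1 were all called lower in AR3_mut (−0.97 to −1.54, edgeR adjusted p = 0.0157 to 0.0432), where 5.93% of all genes were. Without AR3_mut 2, C3 was called lower (−1.53, edgeR adjusted p = 0.046), where 2.65% of all genes were.

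The wider pathway was read from 50 other complement genes, of which 37 were in the table and 30 were tested. In AR3_mut against AR3_het 14 rose, 7 fell and 9 did not pass, where 21.2% of all genes rose and 20.6% fell. The median log2 fold change was 1.0 beside −0.04 over all genes. In nude against AR3_het 17 rose, 8 fell and 5 did not pass, where 23.7% of all genes rose and 24.2% fell. The median was 1.15 beside −0.03. These shares over all genes also stand beside the counts by role given below. Among genes of initiation, C1s1, the protease partner of C1r, rose from 36.7 ± 5.09 CPM in AR3_het to 395 ± 108 CPM in AR3_mut (3.42, SE 0.38, edgeR adjusted p = 2.91e-05) and 563 ± 222 CPM in nude (3.94, SE 0.38, edgeR adjusted p = 8.04e-06). The collectin genes Colec11 and Colec12, whose products bind sugars or debris, differed in where they rose. Colec11 rose in AR3_mut to 26.9 ± 10.02 CPM and was at 2.44 ± 1.46 CPM in nude and 1.75 ± 0.591 CPM in AR3_het, and its difference between AR3_mut and nude passed the test (3.42, SE 0.47, edgeR adjusted p = 0.00165). Colec12 was at 64.1 ± 49.3 CPM in AR3_mut, 199 ± 91.1 CPM in nude and 4.22 ± 1.73 CPM in AR3_het, and rose in both. Fcna, a ficolin of macrophages, fell in both, with 85 counts over AR3_het, 2 over AR3_mut and 1 over nude. Its log2 ratio was −4.14 in AR3_mut (95% counting interval −7.20 to −2.24) and −5.97 in nude (−11.29 to −3.45). Mbl2, the lectin of the mannose-binding branch, had 88 counts over AR3_het, 0 over AR3_mut and 1 over nude. With 3 counts per group as the limit for 0, it was at least 12.1-fold lower in AR3_mut.

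C1rb and C1s2, further mouse copies of the C1r and C1s genes, were high in nude alone of the 3 groups. C1rb had 1, 1 and 0 counts in AR3_het, 12, 6 and 4 in AR3_mut and 304, 398, 113 and 632 in nude. C1s2 had 7, 1 and 1 counts in AR3_het, 6, 15 and 1 in AR3_mut and 474, 772, 156 and 833 in nude. Both were higher in nude than in AR3_mut, with AR3_mut lower by −5.16 for C1rb (SE 0.54, edgeR adjusted p = 0.000437) and by −5.76 for C1s2 (SE 0.69, edgeR adjusted p = 0.00077). Their counterparts C1ra and C1s1 did not pass that comparison (C1s1 −0.51, SE 0.32, edgeR adjusted p = 0.343). Without nude 3 both were called lower in AR3_mut (−1.14 and −0.75, edgeR adjusted p = 0.0216 and 0.0446), where 5.93% of all genes were. Strain and genotype cannot be told apart here. C1rl, a relative of C1r, rose in both groups (2.34 and 3.44), while C4a (1.25) and Masp2 (1.87), a protease of the lectin branch, rose in nude and did not pass in AR3_mut.

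Of the alternative pathway, Cfd (factor D, the protease that activates factor B and is abundant in fat) rose from 0.767 ± 0.265 CPM in AR3_het to 35.5 ± 26.9 CPM in AR3_mut (5.37, SE 0.93, edgeR adjusted p = 0.00073) and 26.1 ± 19.8 CPM in nude (4.96, SE 0.90, edgeR adjusted p = 0.000758). Cfp (properdin, which stabilises the alternative enzyme and is made by leukocytes) was at 30.9 ± 7.34 CPM in AR3_het and 20.8 ± 9.50 CPM in AR3_mut, and fell in nude to 9.32 ± 2.61 CPM (−1.72, SE 0.33, edgeR adjusted p = 0.00117). The terminal pathway was hardly measured. Of 7 listed genes 3 were in the table and 2 were tested, and Hc, the gene of C5, had 36 counts over AR3_het, 20 over AR3_mut and 3 over nude, a log2 ratio of −3.15 in nude (95% counting interval −5.49 to −1.48) that passed the test (edgeR adjusted p = 0.00482).

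Of 4 membrane regulators tested, 3 rose and 1 fell in AR3_mut and 2 rose and 1 fell in nude. In fluid, Clu (clusterin) and Vtn (vitronectin), which block the terminal complex, rose in both groups. Clu went from 1070.1 ± 180.2 CPM to 3230.4 ± 246 CPM in AR3_mut (1.59) and 2274 ± 772 CPM in nude (1.09). Vtn went from 4.30 ± 2.48 CPM to 82.5 ± 17.5 CPM in AR3_mut (4.29) and 15.1 ± 10.2 CPM in nude (1.83), and its nude call was lost without AR3_het 1, AR3_het 3 or nude 4 and with the replicate number as a block, with adjusted p from 0.00435 with DESeq2 to 0.0898 with edgeR without AR3_het 1 over the alternatives. Cfi (factor I, which cuts C3b) moved in opposite directions, with 38 counts over AR3_het, 1 over AR3_mut and 151 over nude. C4bp, the C4b-binding regulator, had 71 counts over AR3_het and 0 in the other groups, at least 9.78-fold lower in AR3_mut and at least 17.5-fold lower in nude. On membranes, Cr1l (Crry, the rodent inhibitor of C3 activation) rose in AR3_mut (1.55) and nude (1.08), Cd59a, which blocks the lytic pore, rose in both (3.04 and 3.17), and Cd55, which speeds decay of the C3-cleaving enzymes, rose in AR3_mut (2.89) and did not pass in nude (1.22, edgeR adjusted p = 0.0672). Susd4, another membrane regulator, fell in both groups (216 counts over AR3_het, 3 over AR3_mut and 20 over nude).

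Of 5 receptor genes tested, 2 rose and 2 fell in AR3_mut and 3 rose and 2 fell in nude. The leukocyte integrin chains Itgb2 and Itgam, which form complement receptor 3, fell in both groups. Itgb2 was at 52.9 ± 9.97 CPM in AR3_het, 1.04 ± 0.983 CPM in AR3_mut and 0.477 ± 0.561 CPM in nude (−5.32 and −6.54), and Itgam changed by −2.44 and −4.03. Cd93, an endothelial and myeloid protein once taken for a C1q receptor, rose from 9.85 ± 8.004 CPM to 351 ± 87.4 CPM in AR3_mut (5.12, SE 0.61, edgeR adjusted p = 5.14e-05) and 91.1 ± 42.0 CPM in nude (3.17, SE 0.55, edgeR adjusted p = 0.000596). Lrp1, a scavenger receptor of many stromal cells, rose in both (1.75 and 2.47). Calr, the chaperone calreticulin that can display C1q at the surface of dying cells, rose in nude (0.90) and was at 0.14 in AR3_mut (edgeR adjusted p = 0.528).

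**Figure D4:**
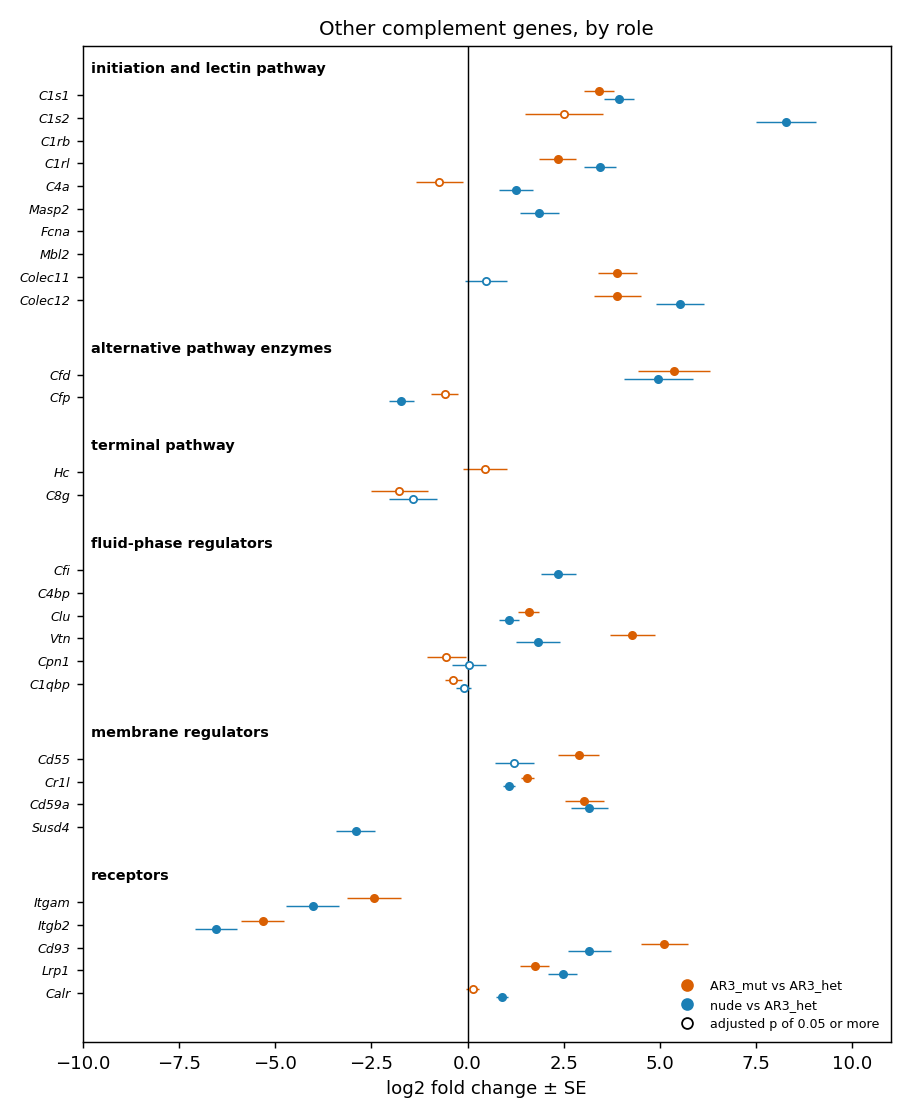
Fitted log2 fold change with SE of the other complement genes by role, in AR3_mut against AR3_het and nude against AR3_het. Filled points passed the adjusted threshold, and values with 3 or fewer counts over a group are left out. C1s1, Cfd, Cd59a and Cd93 lie to the right of 0 in both comparisons, and Itgb2 and Itgam to the left.

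Genes with the closest pattern over the 10 libraries were ranked by Pearson correlation of log2 CPM. The candidates were 9278 genes with a mean of 10 CPM or more, leaving out the members, predicted gene models and Rik clones. The libraries fall into groups, so these correlations mostly restate the group differences and are given as a description. For Serping1 the closest were C1s1 (0.997), Ano1 (0.997) and Mfap2 (0.996), and for C1ra they were Nbl1 (0.997), Rcn3 (0.995) and Ndn (0.995). C2 and C3 shared Mmp19, a matrix metalloproteinase, as the closest gene outside the members (0.996 and 0.995). Next came Daglb and Qpct for C2, and Mmp23 and Fabp3 for C3. The closest to C4b were Vit (0.996), Cela1 (0.993) and Fam180a (0.992), and to Cfb they were Akap1 (0.993), Clic4 (0.991) and Psen2 (0.987). For the C1q chains the list held the lymphocyte gene Ptprcap, with Crcp and Tank, for C1qa (0.946 to 0.949), Lpcat2, Crcp and Cd40 for C1qb (0.973 to 0.981), and Inpp5b, Tank and Ralgapa2 for C1qc (0.969 to 0.982). Among the members, C2 and C3 were the most alike pair, with a correlation of 0.998.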

How the data were processed

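The authors deposited 1 table of raw counts per gene for 10 libraries, per the file headers, and, for 3 comparisons, log2 fold changes with adjusted p-values of their own. Tools listed without roles in the submitters' processing notes are STAR 2.4.2a, HTSeq, cutadapt, bcl2fastq and DESeq2, with the build mm10. No source used here says whether molecular identifiers were collapsed or which annotation was used. The table's 20 columns of normalized or transformed values were not used. The name Foxn1_ATAC in the authors' comparisons was taken as AR3_mut.

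The main test was edgeR 4.0.16 (R 4.3.3), a robust quasi-likelihood fit over all 10 libraries by group, after filterByExpr (minimum count 10, minimum total 15) and TMM. Tests were two-sided and adjusted over all genes tested. An SE is the log2 fold change divided by the square root of F, which at few counts can be below counting error. The fit was tested on simulated data. Intervals and floors cover counting error only. Alternatives used DESeq2 1.42.0, limma 3.58.1, other scalings and filters, 2 groups only, a replicate block and each library left out. Gene positions come from GENCODE M21 and promoters from RefSeq. RefSeq promoters matched 4 of the 9 members, C1qb, C1qc, C1ra and C3.

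The members and lists were chosen with earlier results of these data known. One gene of the wider list is not reported here. Apart from markers and genes overlapping a member, named genes include the members, Foxn1 and the 3 genes closest to each member. Wider-list genes are named where they passed a test with a group mean of 20 CPM or more, or are in small counts of calls. Cell type markers were named as examples from their lists, by no fixed rule.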

Additional observations from a re-analysis of the deposited data

Results flagged for a closer look

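Of 55 quantities examined over the 4 nude libraries, 5 had 1 library far from the rest (gap over range above Dixon's 95% critical value, which chance passes in about 1 in 20 groups). C3 was low in nude 3, at 2542 CPM against 5799 to 6159 CPM in the other nude libraries (gap over range 0.90). C1qb was low in nude 2, at 0.412 CPM or 1 count against 2.17 to 2.46 CPM (0.859). Cd55 was high in nude 1, at 19.5 CPM against 11.9 to 12.8 CPM (0.881). C3 per 100 fibroblast and pericyte marker counts was high in nude 1, at 34.7 against 24.9 to 26.1 (0.881), so nude 3, low in C3 itself, was not low by this ratio. Cfb per 100 such counts was low in nude 2, at 1.52 against 1.72 to 1.74 (0.923).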

How the results depend on the processing

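For the 9 members, 160 of 162 values over 18 alternatives kept direction and call in AR3_mut against AR3_het, the exceptions being the lost C1qa calls given above, and 162 of 162 did in nude against AR3_het. With 1 library left out, 8 to 9 members were called in the former and 9 in the latter, 0 to 5 in AR3_mut against nude, and DESeq2 called 2 in that last comparison. Genes called in AR3_mut against nude numbered 1458, 952 when only those groups were fitted, 948 with the replicate block and 883 to 1993 with 1 library left out (904 without AR3_mut 1, 883 without nude 1). Over all genes the left-out range was 4444 to 5695 for AR3_mut against AR3_het and 5169 to 6596 for nude against AR3_het. Library totals in place of TMM shifted the median of all genes by −0.295 and −0.377 log2 in the comparisons with AR3_het, less than any member's change. The replicate numbers did not pair the samples. The correlation of same-numbered deviations ran from −0.31 to 0.157, and the block changed no member's call, with 4796 and 5242 genes called against AR3_het. Directions that reversed, none of them called, were Calr in AR3_mut against AR3_het with library totals (−0.15 from 0.14) and, in AR3_mut against nude, Cfb, Cfd and Cd59a. With 1 library left out Cfb ran from −0.06 (without AR3_mut 2) to 0.42, Cfd from −0.32 (without AR3_mut 3) to 0.90, and Cd59a, −0.13 with all libraries, from −0.37 to 0.47 (0.03 without AR3_mut 3, 0.47 without nude 3). Cd59a was 0.14 with limma-voom and 0.09 with the replicate block. In AR3_mut against nude, the calls of Cd55 (lost in 7 of 18 alternatives), Cd93 (4) and Calr (1, the block) were also lost. Calls of Colec12 (5 of 18 alternatives), Cfp (3), Cr1l (2), Lrp1 (1) and C1s1 (1) were gained there. The causes were not tested. C1q counts of 0 to 6 per chain in the nude libraries limit what the AR3_mut against nude comparison can show.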
